A study of Homo sapiens with 2 samples.

Results

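The collagen genes comprised every gene name of the count tables that consists of COL, a number, A and a number, which gave 44 of 33694 gene names. By class, 11 are fibrillar, 8 belong to basement membranes (6 chains of type IV and the 2 multiplexins) and 25 form the other group. The other group holds 5 chains of type VI, 10 fibril-associated collagens (FACITs), 3 short-chain network collagens, 4 transmembrane collagens and 3 remaining genes (COL7A1, COL26A1 and COL28A1).

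Collagens are secreted or membrane proteins whose chains wind around each other into a helix, and each gene encodes a chain, so the kind of collagen a cell can assemble depends on which chains it makes together. Fibrillar collagens form the tensile fibres of connective tissue, type IV forms the sheet-like network of basement membranes, and FACITs sit on the surface of fibrils. The enteric neural crest migrates through a collagen-containing matrix in the gut wall on its way to forming the enteric nervous system, and mesenchymal derivatives of the neural crest are known for strong fibrillar collagen expression.

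Single-cell RNA sequencing was performed on H9 human embryonic stem cells differentiated towards the enteric neural crest, with 1 library at day 10, from cells adherent on Geltrex, and 1 library at day 15, from free-floating crestospheres. Each library pooled 2 biological repeats, which the tables do not separate, so no test between the stages was possible, and day, plating, medium and library cannot be told apart. The deposited annotation divided the 7295 cells kept at day 10 into 4921 enteric neural crest cells (ENCCs), 1811 neuro-epithelial progenitors (NEPs), 324 cranial placode cells (CP) and 239 non-neural ectoderm cells (NNE), and the 5336 cells kept at day 15 into 4934 ENCCs, 104 NEPs, 2 cranial placode clusters of 208 (CP1) and 43 cells (CP2), and 47 mesenchymal cells (Mes). ENCCs were further divided into subclusters ENCC 1 to 4 at day 10 and ENCC 1′ to 4′ at day 15.

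The libraries held 70488169 transcript counts (unique molecular identifiers, UMIs) in 9627 cells at day 10 and 84976253 UMIs in 6320 cells at day 15, with medians of 6713 and 11770.5 UMIs per cell. They shared 102 cell barcodes. Levels are given as UMIs of a gene per 1000000 UMIs of the same cells (CPM), with an exact Poisson 95% interval in parentheses. Shares of UMIs or cells carry an exact Clopper-Pearson 95% interval. All intervals cover counting error only. Levels of different genes come from counts of transcript ends, not divided by length, and capture can differ between transcripts. The cell types were themselves defined by clustering on gene expression, so differences between cell types are descriptions. The study lists COL1A1, COL1A2, COL3A1, COL5A2 and COL11A1 among its annotation genes for mesenchymal cells. For the day-15 mesenchymal cluster its text names TWIST1 and MSX1. Its methods refer to the listed genes for annotating clusters in general, so the Mes label may rest in part on these collagens. The marker genes fit the labels for the most part. SOX10 was 119.7 (116 to 123) CPM in day-10 ENCCs and 103 (100.4 to 106) in day-15 ENCCs, and TWIST1 was 162 (131 to 199) in Mes against 0.251 (0.137 to 0.421) in day-15 ENCCs. PAX6, a NEP marker, was however higher in CP2 (381 (323 to 446) CPM) than in the day-15 NEPs (112 (93.9 to 134)), and EPCAM, an NNE marker, was 40.97 (30.1 to 54.5) in the day-15 NEPs. Day-10 ENCCs without a subcluster name had 1107 CPM of the NEP markers WNT2B and PAX6 together. The 7 mesenchymal markers summed to 348 CPM in Mes and to between 5 and 98 CPM in the other types, with TWIST1 and PRRX1 at 0 in day-10 NEPs, NNE and CP. The 5 endothelial markers summed to between 0 and 27.1 CPM, the highest in day-10 CP from CLDN5 alone, and PECAM1 was at 0 in every day-10 type.

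Collagen transcripts were less abundant in the day-15 library, where they summed to 341 CPM (337 to 345), than in the day-10 library, where the sum was 754 CPM (748 to 761). For ENCCs alone the day-10 sum was 765 CPM (756 to 774) and the day-15 sum 358 CPM (353 to 363). Among the other day-10 types it was 791 CPM (777 to 806) in NEPs, 529.7 CPM (497 to 564) in NNE and 451 CPM (425 to 478) in CP. At day 15 it was 758 CPM (709 to 811) in NEPs, 528 CPM (469 to 592) in Mes, 196 CPM (179 to 215) in CP1 and 187 CPM (147 to 234) in CP2. Collagen transcripts were thus most abundant in day-10 ENCCs and NEPs and in day-15 NEPs, whose intervals overlap in part, and least abundant in both day-15 placode clusters.

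**Figure D1:**
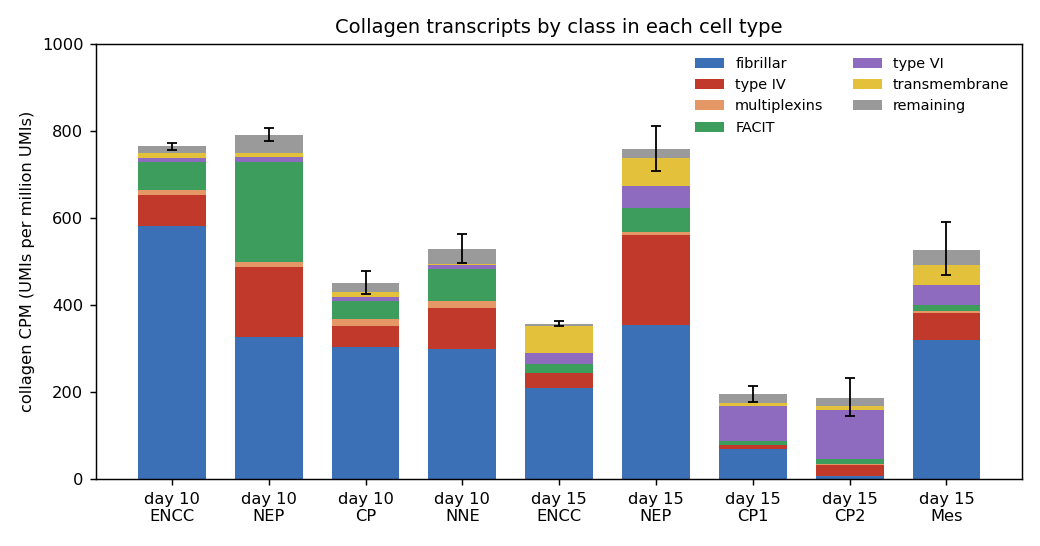
Collagen CPM of each deposited cell type, stacked by collagen class, with the exact Poisson 95% interval of the total as a black bar. Day-10 ENCCs reach 765 CPM with a large fibrillar part, NEPs carry larger type IV and FACIT parts, and transmembrane collagens form a visible part in day-15 ENCCs (61.7 CPM).

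The mix of classes differed between the stages. In ENCCs the fibrillar genes held 76.01% of the collagen UMIs at day 10 and 58.7% at day 15, and the basement membrane genes 11.03% and 9.81%. FACITs held 8.17% and 5.54%. The transmembrane collagens went from 1.78% to 17.3%, and type VI from 1.18% to 6.91%. A single gene, COL1A2, supplied 55.4% of all collagen UMIs in day-10 ENCCs and 40.9% in day-15 ENCCs.

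Of the 44 genes, 42 had a UMI at day 10 and 40 at day 15. The 22 genes with at least 5 CPM in a whole library, or at least 10 CPM on at least 10 UMIs in a cell type or subcluster of at least 40 cells, are described below with their own values. The other 22 lay between 0 and 3.22 CPM at day 10 and between 0 and 2.24 CPM at day 15, and together held 1.27% and 1.91% of the collagen UMIs.

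To compare stages, a gene was called when it differed by more than 1 log2 unit of CPM + 1, among genes whose mean CPM in the compared groups was at least 2. In the whole libraries, 21 collagen genes passed this filter. Of these, 12 were lower at day 15 (COL1A1, COL1A2, COL2A1, COL11A2, COL4A5, COL4A6, COL18A1, COL9A1, COL9A2, COL9A3, COL22A1 and COL26A1), against 8.79% of all 11530 genes compared, and 2 were higher (COL6A1 and COL23A1), against 8.39% of all genes. In ENCCs, 21 passed and 11 were lower, against 5.99% of 10878 genes, while 2 were higher, against 7.86%. Of the genes lower in ENCCs, COL4A6, COL9A3, COL11A2 and COL18A1 passed the filter only through day 10, as did COL9A3, COL11A2, COL18A1 and COL22A1 in the whole libraries. The genes called were those named for the whole libraries except COL26A1, whose ENCC log2 ratio was -0.99. The median log2 ratio of the collagen genes compared was -1.31 in the whole libraries and -1.17 in ENCCs, while the medians of all genes compared were -0.15 and -0.13. With TMM scaling the medians of all genes moved by 0.18 and 0.17 log2 units, to 0.03 and 0.04, and the split of all calls in the whole libraries went from 967 higher and 1014 lower to 1206 higher and 757 lower. In ENCCs it went from 855 higher and 652 lower to 1063 higher and 461 lower.

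**Figure D2:**
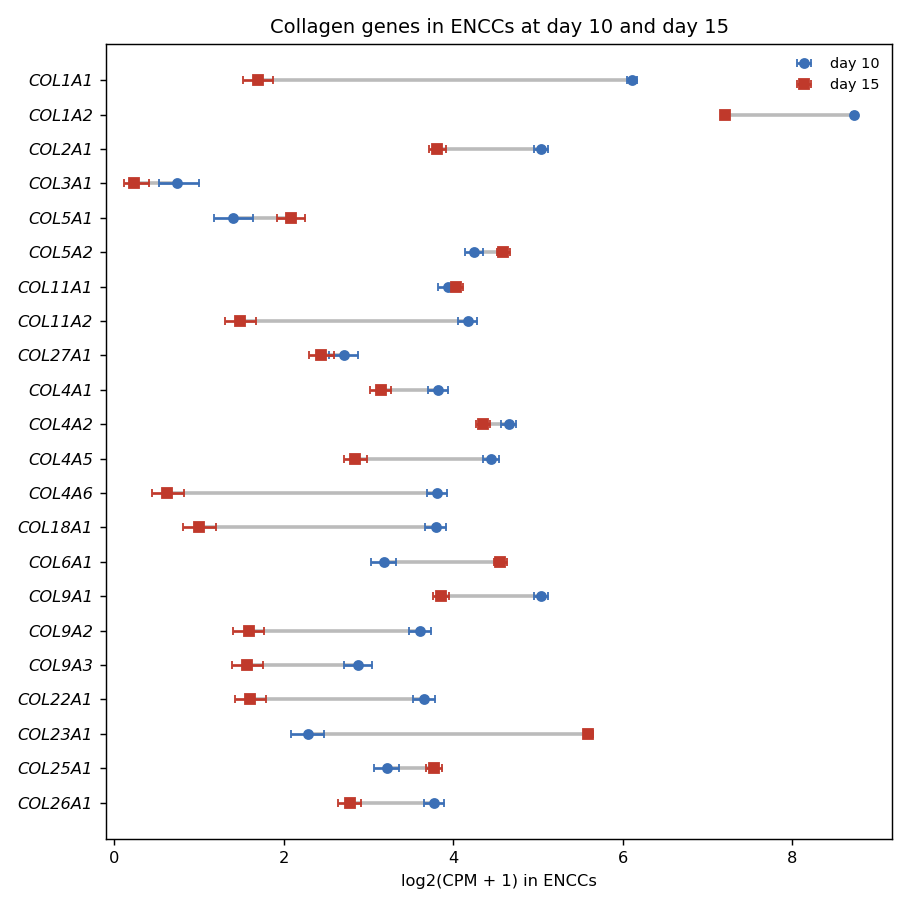
Level of each of the 22 described collagen genes in ENCCs at day 10 (blue circles) and day 15 (red squares) on a log2(CPM + 1) axis, with exact Poisson 95% intervals. Most red squares lie left of the blue circles, furthest for COL1A1 (log2 ratio -4.42) and COL4A6 (-3.19), while COL23A1 (3.31) and COL6A1 (1.37) lie to the right.

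Type I collagen, the main fibril of most connective tissues, is normally assembled from chains of COL1A1 and COL1A2 with the COL1A1 chain in excess. COL1A2 (chromosome 7, 94394561 to 94431232, plus strand of GRCh38) was the most abundant collagen transcript in both libraries. It stood at 424 CPM (417 to 431) in day-10 ENCCs, 199 (182 to 218) in CP, 153 (147 to 159.8) in NEPs and 117 (102 to 134) in NNE. The day-15 values were 248 CPM (220.4 to 279) in NEPs, 166 (134 to 203) in Mes, 146 (143 to 149.6) in ENCCs, 14.2 (9.86 to 19.9) in CP1 and 7.46 (1.54 to 21.8) in CP2. ENCCs were the highest type at day 10, but at day 15 NEPs lay above them and the intervals of Mes and ENCCs overlapped. The ENCC log2 ratio of day 15 over day 10 was -1.53 (-1.58 to -1.47).

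COL1A1 (chromosome 17, 50183289 to 50201632, minus strand) differed more between the stages. Its level was 68.2 CPM (65.6 to 70.9) in day-10 ENCCs and 2.24 CPM (1.86 to 2.67) in day-15 ENCCs, a 30.5-fold difference and a log2 ratio of -4.42 (-4.65 to -4.18). Day-10 NEPs, NNE and CP had 12.4 (10.6 to 14.4), 10.3 (6.196 to 16.1) and 20.7 (15.5 to 27.2) CPM. At day 15 no cell type exceeded 6.102 (2.45 to 12.6) CPM, the value of NEPs, and Mes stood at 3.57 (0.432 to 12.9), on 2 UMIs.

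The 2 type I chains therefore did not move in step. COL1A1 supplied 2521 of 18180 UMIs, 13.9% (13.4 to 14.4%) of the type I transcripts in day-10 ENCCs and 125 of 8301 UMIs, 1.51% (1.25 to 1.79%) in day-15 ENCCs. Within day 10 the share ran from 8.78% (7.06 to 10.8%) in ENCC 3 to 18.01% (15.1 to 21.2%) in ENCC 4, and it was 7.49% (6.45 to 8.63%) in NEPs. Within day 15 it ran from 0.754% (0.39 to 1.31%) in ENCC 3′ to 4.67% (2.26 to 8.43%) in ENCC 4′. Every numbered day-15 subcluster lay below every day-10 subcluster, although the intervals of ENCC 3 and ENCC 4′ overlapped. After thinning every cell to 3000 UMIs, a COL1A1 UMI was found in 17.6% (16.6 to 18.7%) of day-10 ENCCs and 0.73% (0.512 to 1.01%) of day-15 ENCCs, and a COL1A2 UMI in 66.4% (65.04 to 67.7%) and 34.2% (32.9 to 35.6%). In CP1, where COL1A2 was low, 2.88% (1.07 to 6.17%) of cells had a COL1A2 UMI, with median depths before thinning of 11734.5 UMIs in CP1 and 11082 in day-15 ENCCs.

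**Figure D3:**
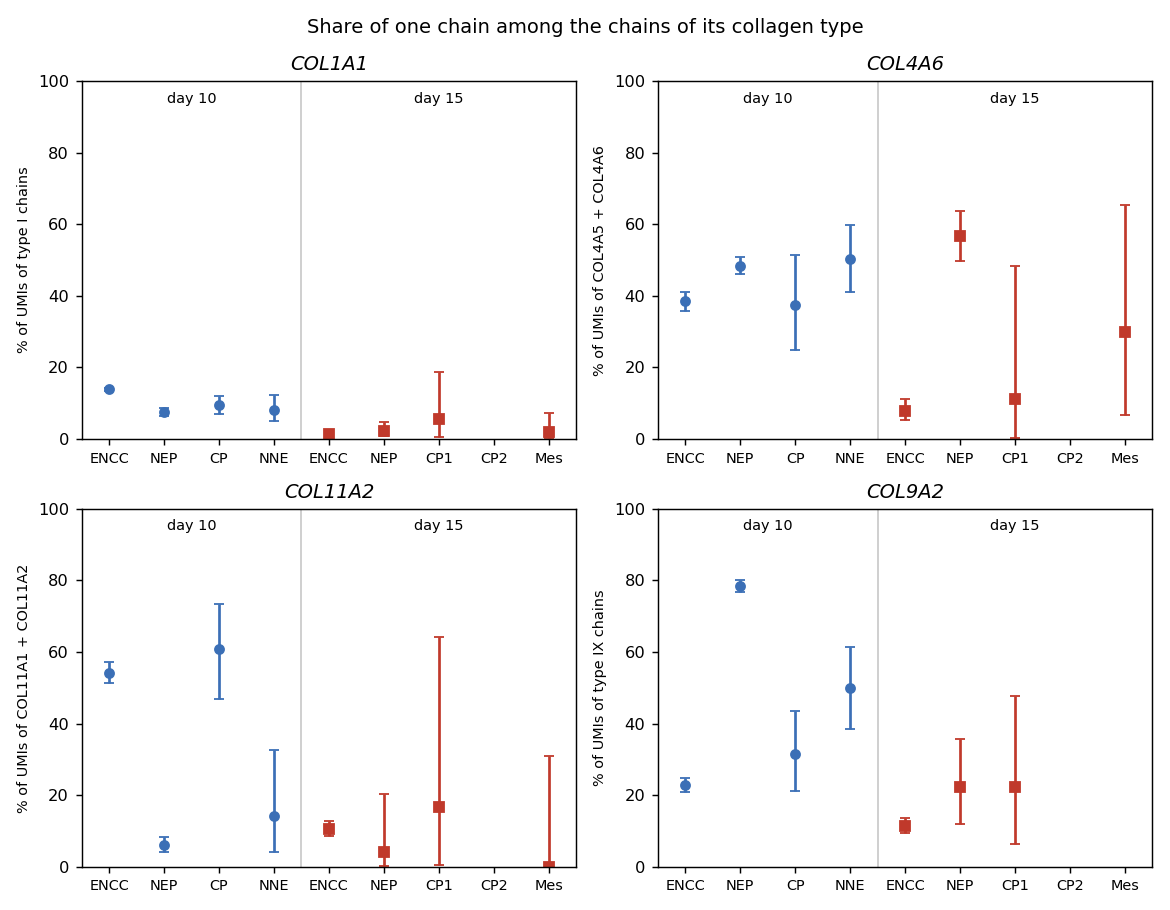
Percent of UMIs supplied by a single chain among the chains of its collagen group, in each cell type of day 10 (blue circles) and day 15 (red squares), with exact Clopper-Pearson 95% intervals and without types that have fewer than 5 UMIs of the group. COL1A1 drops from 13.9% (13.4 to 14.4%) of type I UMIs in day-10 ENCCs to 1.51% (1.25 to 1.79%) in day-15 ENCCs, COL4A6 keeps its share in NEPs but not in ENCCs, and COL9A2 stands out in day-10 NEPs.

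Type II collagen, encoded by COL2A1, is the fibrillar collagen of cartilage and is also made by many embryonic epithelia. At day 10 it was 88.6 CPM (83.8 to 93.7) in NEPs, 52.5 (42.6 to 64.1) in NNE, 32.7 (26.01 to 40.6) in CP and 31.8 (30.04 to 33.7) in ENCCs. At day 15 Mes had 76.7 CPM (55.5 to 103), NEPs 27.02 (18.4 to 38.4) and ENCCs 13.1 (12.1 to 14.1), and CP1 had 3 UMIs. The day-15 ENCC subclusters were not alike, with 18.3 (16.4 to 20.3) CPM in ENCC 1′ and 12.9 (11.6 to 14.3) in ENCC 2′ but 3.05 (1.97 to 4.503) in ENCC 3′ and 3.96 (1.45 to 8.61) in ENCC 4′. The cartilage markers ACAN, MATN1 and COMP were at 0 in Mes, where SOX9 was 41.02 (26 to 61.5) CPM.

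Type XI collagen starts and limits the growth of type II fibrils, and its genes COL11A1 and COL11A2 showed opposite patterns at day 10. COL11A1 was 41.2 CPM (37.9 to 44.7) in NEPs and 14.3 (13.1 to 15.6) in ENCCs, whereas COL11A2 was 2.64 (1.86 to 3.63) in NEPs and 17 (15.7 to 18.4) in ENCCs. COL11A2 thus supplied 54.2% (51.3 to 57.1%) of the COL11A1 and COL11A2 UMIs in ENCCs and 6.02% (4.27 to 8.198%) in NEPs. By day 15 COL11A2 was at 1.81 (1.47 to 2.197) CPM in ENCCs, a log2 ratio of -2.68 (-2.97 to -2.38), while COL11A1 stood at 15.3 (14.3 to 16.4), a log2 ratio of 0.09 (-0.12 to 0.30) whose interval includes 0. Among the day-15 subclusters COL11A1 was 26.1 (23.8 to 28.5) CPM in ENCC 1′, above ENCC 2′ (9.99 (8.83 to 11.3)) and ENCC 3′ (8.298 (6.44 to 10.5)), while ENCC 4′ overlapped with ENCC 1′.

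Type V collagen starts type I fibrils. Its chain COL5A2 was 92.6 CPM (79.3 to 108) in day-10 NNE and between 13.6 and 18 CPM in the other day-10 types. After thinning, 21.7% (16.6 to 27.5%) of NNE cells had a COL5A2 UMI against 5.27% (4.66 to 5.93%) of ENCCs. Day-15 levels were 48.98 (40.5 to 58.7) CPM in CP1, 31.4 (21.98 to 43.4) in NEPs, 23.1 (21.9 to 24.4) in ENCCs and 10.7 (3.93 to 23.3) in Mes, and no UMI was found in CP2, where 3 UMIs would equal 7.46 CPM. Its partner COL5A1 was low in ENCCs at both stages (1.65 (1.26 to 2.12) and 3.26 (2.803 to 3.77) CPM) and reached 10.8 (7.097 to 15.7) in day-10 CP and 12.5 (5.02 to 25.7) in Mes. The COL5A1 share of COL5A1 and COL5A2 UMIs was 2.84% (0.929 to 6.505%) in NNE, 44.3% (31.5 to 57.6%) in CP and 0% (0 to 3.104%) in CP1, where the 2 genes had 117 UMIs.

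Type III collagen, COL3A1, is found with type I in the walls of gut and vessels. It was scarce in most types and had 23.2 CPM (12.3 to 39.6) in Mes, on 13 UMIs in 8 of 47 cells, against 0.179 (0.0859 to 0.329) in day-15 ENCCs. Day-15 and day-10 NEPs had 7.85 (3.59 to 14.9) and 5.06 (3.95 to 6.38), and day-10 NNE 3.25 (1.19 to 7.07). The other fibrillar gene described, COL27A1, lay at 5.55 (4.81 to 6.36) in day-10 and 4.44 (3.91 to 5.03) in day-15 ENCCs, with overlapping intervals. COL5A3 and COL24A1 had 8 and 11 UMIs in the day-10 library and 4 and 2 at day 15.

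Type IV chains are encoded in head-to-head gene pairs, and the shared stretches between the gene starts of both expressed pairs are shown because the shares of the paired chains are compared below. They are RefSeq sequences of GRCh38.p14 on the plus strand, and each is named with the gene that reads leftwards first and the gene that reads rightwards second. Capitals mark CCAAT in either orientation. The stretch between COL4A1 and COL4A2, chr13:110307158-110307283, fills the whole space between starts 127 bases apart, so COL4A1 reads leftwards from just before it and COL4A2 rightwards from just after it. The stretch of 250 bases before COL4A5, chrX:108439588-108439837, ends just before the COL4A5 start. It covers most of the 380 bases between that start and the nearer of the 2 listed COL4A6 starts, which lies outside its left end.
COL4A1-COL4A2: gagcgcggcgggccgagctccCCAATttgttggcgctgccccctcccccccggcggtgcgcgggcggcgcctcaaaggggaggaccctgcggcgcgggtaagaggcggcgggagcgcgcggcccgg
COL4A6-COL4A5: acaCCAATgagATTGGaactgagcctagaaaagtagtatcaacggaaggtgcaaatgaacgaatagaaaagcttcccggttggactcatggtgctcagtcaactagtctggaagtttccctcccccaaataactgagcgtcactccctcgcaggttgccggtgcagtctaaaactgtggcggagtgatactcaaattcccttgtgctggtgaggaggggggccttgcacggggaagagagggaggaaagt

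CCAAT, searched on both strands in the 250 bases before a start, was present before COL4A1, COL4A2, COL4A5 and the COL4A6 start nearer to COL4A5, and absent before COL4A3, COL4A4 and the other COL4A6 start. It occurred in 32.0% of all 35116 such windows. The GC-box letters GGGCGG, found in 42.6% of all windows, were present before COL4A1, COL4A2, COL4A3 and the other COL4A6 start, and absent before COL4A5, the nearer COL4A6 start and COL4A4. TATAAA, found in 10.7% of all windows, was in none of these. The windows of COL4A1 and COL4A2 overlap, as do those of COL4A5 and the nearer COL4A6 start. The CCAAT marked in each stretch, and the GGGCGG between COL4A1 and COL4A2, therefore count for both genes of the pair and are not separate occurrences. Windows were listed for 32 of the 44 genes.

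COL4A1 and COL4A2 encode the chains of nearly every basement membrane, and both stayed within 1 log2 unit between the stages. COL4A1 was 13.1 CPM (11.98 to 14.3) and 7.84 (7.13 to 8.61) in ENCCs of day 10 and day 15, and COL4A2 24.2 (22.7 to 25.9) and 19.4 (18.2 to 20.6). COL4A1 supplied 35.1% (32.6 to 37.7%) of their joint UMIs in day-10 ENCCs and 28.8% (26.5 to 31.2%) in day-15 ENCCs. Across the other types COL4A2 ranged from 16.8 to 26.4 CPM at day 10 and from 5.44 CPM in CP1 to 28.5 in Mes at day 15. CP1 had the lowest value, on 13 UMIs.

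COL4A5 and COL4A6 form the network of more specialised basement membranes, and both were highest in NEPs at each stage. COL4A5 was 59.6 CPM (55.6 to 63.8) in day-10 NEPs, 31.96 (24.3 to 41.2) in NNE, 20.8 (19.4 to 22.4) in ENCCs and 13.96 (9.72 to 19.4) in CP. COL4A6 was 56.1 CPM (52.2 to 60.1), 32.5 (24.8 to 41.8), 13.02 (11.9 to 14.2) and 8.38 (5.18 to 12.8) in the same types. At day 15 both stayed high in NEPs, with 77.6 CPM (62.3 to 95.5) of COL4A5 and 102 (84.4 to 122) of COL4A6, while ENCCs had 6.195 (5.56 to 6.88) and 0.537 (0.362 to 0.767). Of the 104 day-15 NEPs, 60 of 104 had a COL4A6 UMI before thinning.

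The pair parted in ENCCs. COL4A6 supplied 481 of 1251 UMIs, 38.4% (35.7 to 41.2%) of the joint UMIs in day-10 ENCCs and 30 of 376 UMIs, 7.98% (5.45 to 11.2%) in day-15 ENCCs, but 48.5% (46 to 50.9%) and 56.8% (49.7 to 63.7%) in NEPs of the same days. Over the numbered subclusters alone the day-10 ENCC share was 34.9%, and in the ENCCs without a subcluster name it was 54.3% (47.7 to 60.9%). The day-15 shares in ENCC 1′ and ENCC 2′ were 7.89% (4.15 to 13.4%) and 7.303% (3.95 to 12.2%). In log2 terms, COL4A6 was -3.19 (-3.48 to -2.87) and COL4A5 -1.60 (-1.83 to -1.37) in ENCCs of day 15 over day 10. COL4A3 and COL4A4, whose chains assemble with that of COL4A5 in the kidney, had 3 and 29 UMIs in the day-10 library and 0 and 6 at day 15.

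COL18A1, whose protein carries the fragment endostatin and is linked to enteric neural crest migration in the embryo, was 12.9 CPM (11.7 to 14.1) in day-10 ENCCs and between 11.1 and 15.7 CPM in the other day-10 types. At day 15 it was 1.003 (0.757 to 1.302) in ENCCs, a 12.8-fold difference, and 5.23 (1.92 to 11.4) in NEPs and 5.35 (1.103 to 15.6) in Mes on 6 and 3 UMIs. The related COL15A1 had 3 and 8 UMIs in the 2 libraries. The antisense genes listed for COL4A2, COL5A1 and COL18A1 had no UMI in either library.

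**Figure D4:**
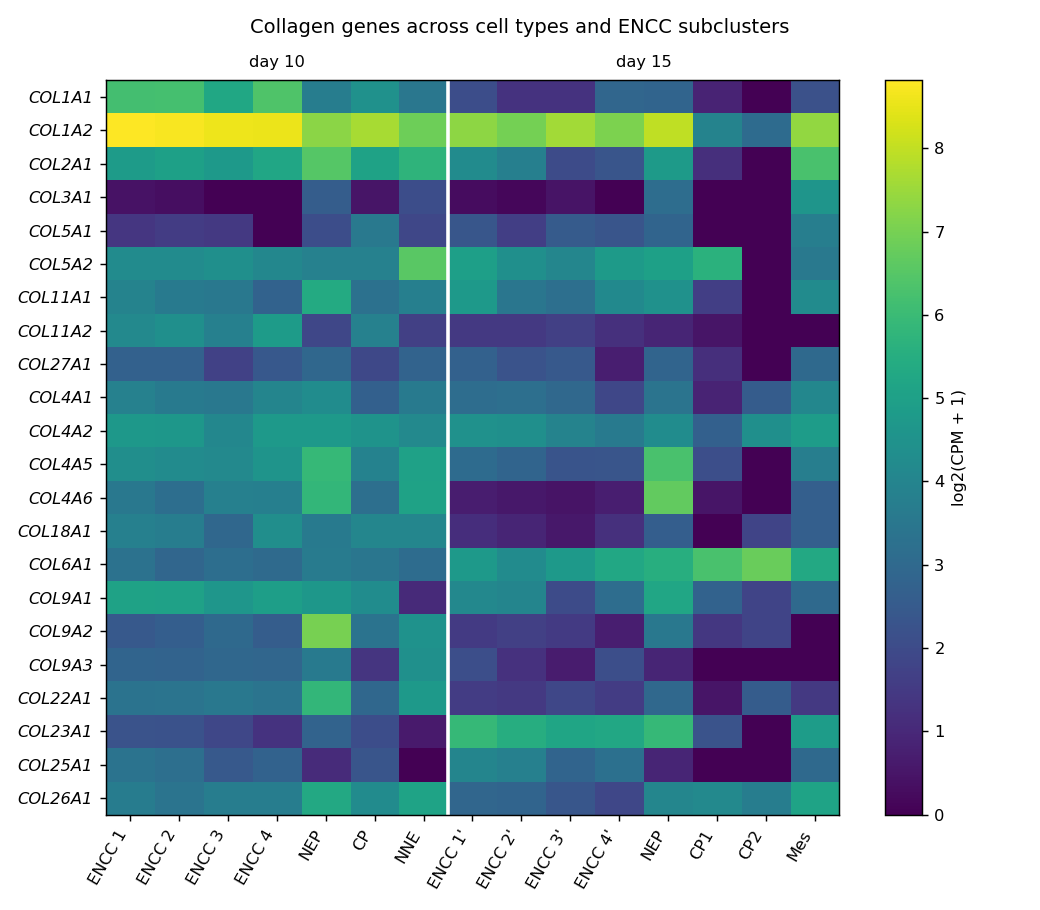
Heat map of log2(CPM + 1) of the 22 described collagen genes (rows) in the ENCC subclusters and other cell types (columns), with day 10 left and day 15 right of the white line. COL1A2 is the brightest row, the NEP columns stand out for COL4A5 and COL4A6 and, at day 10, for COL9A2 and COL22A1, and the rows COL6A1 and COL23A1 are brighter at day 15.

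Among the other collagens, type IX is a FACIT that coats type II fibrils and is built from chains of COL9A1, COL9A2 and COL9A3. COL9A2 was the second most abundant collagen of day-10 NEPs, at 128 CPM (122 to 134), against 21.7 (15.5 to 29.5) in NNE, 11.2 (10.2 to 12.3) in ENCCs and 9.17 (5.82 to 13.8) in CP. After thinning, 30.1% (28.03 to 32.3%) of NEPs had a COL9A2 UMI and 2.58% (2.16 to 3.06%) of ENCCs, with median depths of 7227 and 7004 UMIs. COL9A1 was instead 31.8 (29.98 to 33.6) in ENCCs, 24.2 (21.7 to 26.9) in NEPs and 1.08 (0.131 to 3.91) in NNE. The chain mixture therefore differed by type at day 10, and COL9A2 supplied 78.4% (76.6 to 80.04%) of type IX UMIs in NEPs, 50% (38.6 to 61.4%) in NNE and 22.7% (20.8 to 24.7%) in ENCCs. Within day-10 ENCCs the share ran from 10.4% (8.61 to 12.5%) in ENCC 1 to 18.8% (11.2 to 28.8%) in ENCC 3. It was 72.5% (67.4 to 77.2%) in the ENCCs without a subcluster name. In day-15 ENCCs it was 11.5% (9.53 to 13.6%).

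The 256 day-10 ENCCs that carry no subcluster name resembled NEPs in these genes. They had 109 CPM (95.7 to 123) of COL9A2, 55.6 (46.3 to 66.2) of COL4A6 and 45.3 (36.97 to 55.04) of COL22A1, whereas ENCC 1 had 4.53 (3.701 to 5.49), 10.5 (9.25 to 11.95) and 9.28 (8.07 to 10.6). They held 245 of the 414 COL9A2 UMIs of day-10 ENCCs, and the pooled values of day-10 ENCCs include them. The markers also lay near those of NEPs. WNT2B and PAX6 summed to 1107 CPM in these cells, 16.5 in ENCC 1 and 1399 in NEPs. SOX10 and FOXD3, the ENCC markers, summed to 32.0 CPM in these cells, 146 in ENCC 1 and 14.5 in NEPs. Over the numbered subclusters alone, the COL9A2 log2 ratio of day 15 over day 10 was -0.98 in place of -2.02.

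At day 15, COL9A1 was 35.7 (25.6 to 48.5) CPM in NEPs and 13.5 (12.6 to 14.5) in ENCCs, where ENCC 1′ (16.5 (14.7 to 18.4)) and ENCC 2′ (14.9 (13.5 to 16.5)) exceeded ENCC 3′ (3.05 (1.97 to 4.503)). COL9A2 was 10.5 (5.41 to 18.3) in NEPs and 2.01 (1.65 to 2.41) in ENCCs. COL9A3 was highest in day-10 NNE (20.6 (14.6 to 28.3) CPM), with 10.97 (9.31 to 12.8) in NEPs and 6.36 (5.57 to 7.23) in ENCCs, and 1.97 (1.62 to 2.37) in day-15 ENCCs.

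COL22A1, a FACIT known from tissue junctions such as that of muscle and tendon, was 56.6 CPM (52.8 to 60.7) in day-10 NEPs, 26.5 (19.6 to 35.1) in NNE and 11.6 (10.5 to 12.8) in ENCCs. In day-15 ENCCs it was 2.04 (1.68 to 2.45), a log2 ratio of -2.05 (-2.36 to -1.74). COL14A1, which lay below the limits for description, was among the genes called higher in day-10 NEPs, at 8.33 (6.89 to 9.99) CPM against 0.731 (0.482 to 1.06) in ENCCs. The remaining FACITs (COL12A1, COL16A1, COL19A1, COL20A1 and COL21A1) each had at most 37 UMIs in a library.

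Type VI collagen forms beaded filaments from chains of COL6A1, COL6A2 and COL6A3, and an excess of it around migrating enteric neural crest slows colonisation of the gut in mice. COL6A1 was 8.07 CPM (7.18 to 9.04) in day-10 ENCCs and 22.5 CPM (21.3 to 23.8) in day-15 ENCCs, a log2 ratio of 1.37 (1.15 to 1.60). The other day-10 types ranged from 7.58 to 11.6 CPM. At day 15 it was 109 (79.5 to 147) in CP2, 77.03 (66.3 to 89) in CP1, 45.3 (33.9 to 59.4) in NEPs and 39.2 (24.6 to 59.4) in Mes. CP2 and CP1 overlapped with each other and CP1 lay above all the remaining types. COL6A1 supplied 58.7% of the collagen UMIs of CP2, and a UMI was found in 37.2% (22.98 to 53.3%) of its thinned cells against 7.01% (6.32 to 7.76%) of ENCCs.

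The partner chains were scarce. COL6A2 was 0.541 (0.331 to 0.836) and 1.99 (1.64 to 2.39) CPM in ENCCs of day 10 and day 15, and COL6A3 0.406 (0.227 to 0.67) and 0.215 (0.111 to 0.375). COL6A1 accordingly made up 298 of 333 UMIs, 89.5% (85.7 to 92.6%) of their joint UMIs at day 10 and 1257 of 1380 UMIs, 91.1% (89.5 to 92.5%) at day 15, nearly the same share while its level differed 2.79-fold. COL6A5 and COL6A6 had 0 and 14 UMIs at day 10 and 1 and 3 at day 15.

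Transmembrane collagens keep their helix outside the cell on a membrane anchor and can be shed. COL23A1 showed the largest difference in favour of day 15 and was the second most abundant collagen of day-15 ENCCs. Its level was 3.87 CPM (3.26 to 4.56) in day-10 ENCCs and 47.3 CPM (45.6 to 49.2) in day-15 ENCCs, a 12.2-fold difference. The day-15 subclusters ranged from 34.9 (30.97 to 39.2) in ENCC 3′ to 58.5 (55.1 to 61.99) in ENCC 1′, each above every numbered day-10 subcluster, of which the highest was 3.79 (3.03 to 4.67) in ENCC 1. It was also 59.3 (46.03 to 75.1) in day-15 NEPs and 28.5 (16.3 to 46.3) in Mes, but 3.77 (1.72 to 7.15) in CP1 and 0 in CP2. After thinning, 12.99% (12.1 to 13.96%) of day-15 and 1.098% (0.826 to 1.43%) of day-10 ENCCs had a UMI, against 0.962% (0.117 to 3.43%) of CP1 cells.

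COL25A1, which motor neurons need to innervate muscle in mice, was 8.28 CPM (7.38 to 9.26) in day-10 and 12.7 (11.8 to 13.7) in day-15 ENCCs. Among the other types, day-10 NEPs had 1.14 (0.651 to 1.85) CPM, day-15 NEPs 1 UMI, and day-10 NNE and both day-15 placode clusters none. Day-10 CP had 3.99 (1.91 to 7.33) CPM. Mes had 7.13 (1.94 to 18.3) CPM on 4 UMIs, with an interval that overlaps that of day-15 ENCCs. The day-15 subclusters had 14.96 (13.3 to 16.8) in ENCC 1′ and 6.101 (4.53 to 8.04) in ENCC 3′. COL13A1 and COL17A1 had 83 and 20 UMIs in the day-10 library and 149 and 10 at day 15.

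COL26A1, a secreted collagen-like protein, was 39.3 CPM (36.1 to 42.7) in day-10 NEPs, 33.6 (25.7 to 43.1) in NNE, 17.9 (13.1 to 24.02) in CP and 12.7 (11.6 to 13.9) in ENCCs. At day 15 it was 33.9 (20.4 to 52.9) in Mes, 16.7 (11.96 to 22.8) in CP1, 15.7 (9.3 to 24.8) in NEPs and 5.87 (5.25 to 6.54) in ENCCs, so that ENCCs had the lowest value at both stages. COL7A1, of skin anchoring fibrils, had 116 UMIs at day 10 and 106 at day 15. The short-chain collagens COL8A1, COL8A2 and COL10A1 had 8, 2 and 0 UMIs at day 10 and 11, 0 and 0 at day 15, and COL28A1 had 2 and 0.

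Counted against ENCCs of the same library, the types differed in how many collagen genes stood apart. Day-10 NEPs were higher in 9 of the 23 genes compared (COL2A1, COL3A1, COL4A5, COL4A6, COL9A2, COL11A1, COL14A1, COL22A1 and COL26A1), where 14.2% of all genes were higher, and lower in 4 (COL1A1, COL1A2, COL11A2 and COL25A1), where 2.69% of all genes were lower. Day-10 NNE were higher in 5 of 21 (COL4A6, COL5A2, COL9A3, COL22A1 and COL26A1, all genes 14.9%) and lower in 6 (COL1A1, COL1A2, COL9A1, COL11A2, COL23A1 and COL25A1, all genes 5.76%). CP were higher in 2 of 23 (COL5A1 and COL16A1, all genes 6.32%) and lower in 4 (COL1A1, COL1A2, COL4A1 and COL9A3, all genes 2.46%). COL1A1 and COL1A2 were thus lower than in ENCCs in each of the other day-10 types. Some of these genes passed the filter only through the group in which they were higher, since the other group lay below 2 CPM, and for them a difference follows largely from the filter. They were COL3A1, COL14A1 and COL25A1 in NEPs, COL9A1, COL23A1 and COL25A1 in NNE, and COL5A1, COL16A1 and COL9A3 in CP. COL9A1, COL11A2, COL23A1 and COL25A1 had under 10 UMIs in NNE, as had COL9A3 in CP.

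At day 15, NEPs were higher in 10 of 22 genes, against 22.5% of all genes, and lower in 1, COL25A1, against 6.23%. Of the 10, COL3A1, COL4A6, COL13A1 and COL18A1 passed the filter only through NEPs, as COL25A1 did only through ENCCs, and COL1A1 and COL13A1, on 7 and 5 UMIs, had intervals that overlapped those of ENCCs. The others were COL4A5, COL9A1, COL9A2, COL22A1 and COL26A1. In NEPs COL22A1 rested on 8 UMIs, COL3A1 on 9 and COL18A1 on 6. Mes were higher in 8 of 20 (COL2A1, COL3A1, COL4A6, COL5A1, COL6A2, COL13A1, COL18A1 and COL26A1), against 9.9% of all genes, and lower in 1, COL5A2, against 6.86%. COL3A1, COL4A6, COL6A2, COL13A1 and COL18A1 passed only through Mes, and all of these but COL3A1 rested on 3 to 6 UMIs. The intervals of COL6A2, COL18A1 and COL5A2 overlapped those of ENCCs, so the counts in Mes are a description of a small cluster. CP1 were higher in 4 of 15 (COL5A2, COL6A1, COL7A1 and COL26A1), against 16.3% of all genes, and lower in 9, among them COL1A2, COL4A1, COL4A2 and COL23A1, against 6.83%. Here COL7A1 passed only through CP1, and COL2A1, COL4A1, COL25A1 and COL27A1 only through ENCCs. In CP1 COL7A1 rested on 9 UMIs, and 6 of the lower genes had under 10 (COL2A1, COL4A1, COL11A1, COL23A1, COL25A1 and COL27A1).

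In the mesenchymal cluster, which holds 47 cells, LUM was more abundant than any collagen, while the interval of BGN overlapped that of COL1A2. LUM, a small leucine-rich proteoglycan of collagen fibrils, was at 778 CPM (706 to 854), against 0.519 (0.348 to 0.746) in ENCCs. BGN was 210.4 (174 to 252) and 74.9 (72.7 to 77.2), and DCN 78.5 (57.01 to 105) and 0.0537 (0.0111 to 0.157). PCOLCE, which speeds removal of the propeptide, was 103 (78.5 to 134) and 0.627 (0.437 to 0.872), and DDR2, a receptor for fibrillar collagen, 39.2 (24.6 to 59.4) and 0.806 (0.588 to 1.08). COL1A2, in contrast, had overlapping intervals in Mes and ENCCs, as given above, and the COL1A1 share of type I UMIs was 2.11% (0.256 to 7.399%).

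Genes that handle collagen were examined in 6 lists. Their counts are set beside the 7.86% higher and 5.99% lower among all genes in ENCCs. In the whole libraries these shares of all genes were 8.39% and 8.79%. The lists were chosen with earlier results of these data known, so setting their counts beside these shares is a description and not a test. In the endoplasmic reticulum, prolyl and lysyl hydroxylases, galactosyltransferases and chaperones modify and fold the chains. Of the 18 such genes, 17 were compared in ENCCs, 5 were higher at day 15 (P4HA1, P4HA2, P4HA3, P3H3 and PLOD1) and 0 lower, with a median log2 ratio of 0.67. P4HA1, a catalytic subunit of prolyl hydroxylase, was 66.01 CPM (63.4 to 68.7) in day-10 and 143 (140.0 to 146) in day-15 ENCCs and 437 (404 to 471) in ENCC 4′. P4HA2 was 12.3 (11.2 to 13.5) and 32.6 (31.2 to 34.2). The chaperone gene SERPINH1 was 98.8 (95.6 to 102) and 158 (154 to 161), and P4HB 161 (157 to 165) and 269 (265 to 274), neither past 1 log2 unit. In the whole libraries all 18 were compared. Of these, 2 were higher (P4HA2 and P4HA3, all genes 8.39%) and 2 lower (P3H2 and COLGALT2, all genes 8.79%).

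Procollagen processing and cross-linking genes follow after secretion. Of 13, 7 were compared in ENCCs, 3 were higher (LOX, LOXL1 and LOXL2) and 2 lower (BMP1 and PCOLCE), with a median log2 ratio of 0.16. The lysyl oxidases cross-link fibrils, and LOXL1 was 3.73 CPM (3.14 to 4.41) in day-10 and 27.9 (26.5 to 29.3) in day-15 ENCCs, and 78.7 (67.9 to 90.8) in CP1. LOX itself was 0.189 (0.0762 to 0.39) and 3.97 (3.47 to 4.53). In ENCCs LOX passed the filter only through day 15 and PCOLCE only through day 10, since each lay below 2 CPM at the other stage. For both, a difference follows largely from the filter. In the whole libraries 7 were compared, LOX, LOXL1 and LOXL2 were higher and PCOLCE was lower.

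**Figure D5:**
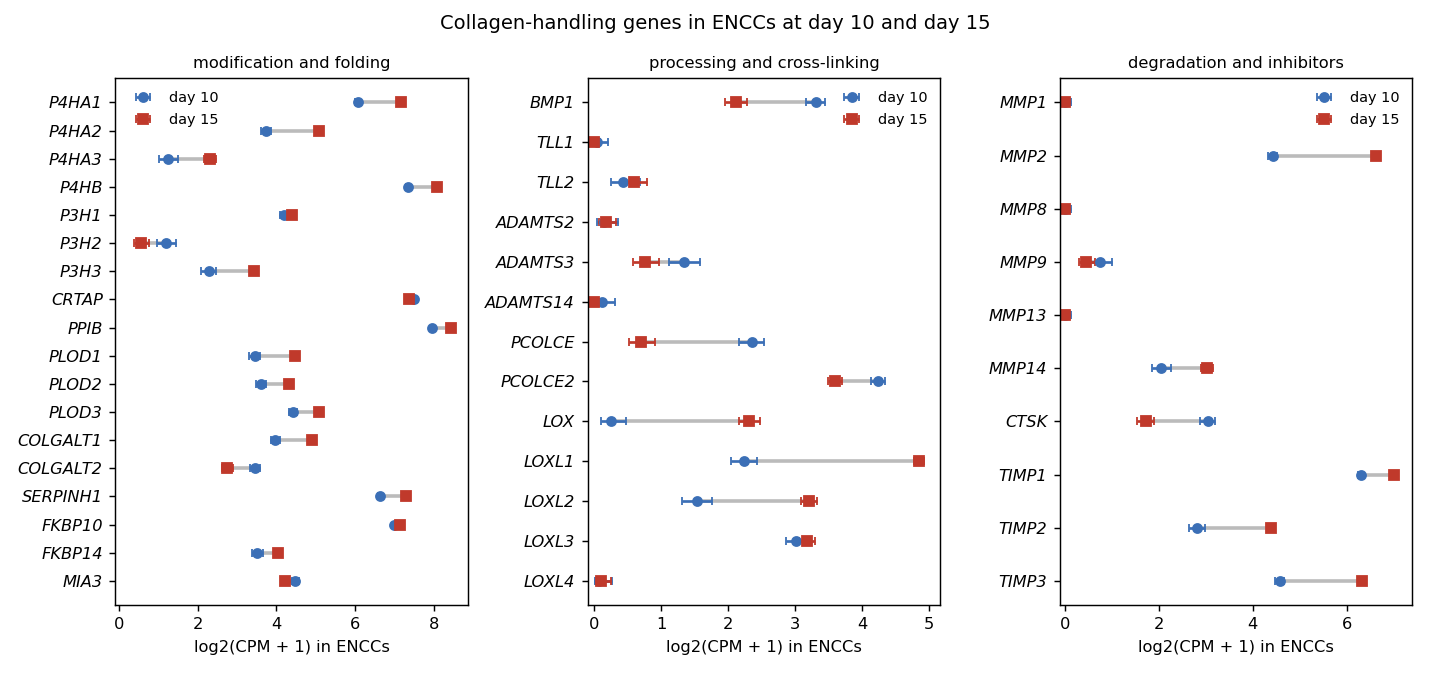
Levels of collagen-handling genes in ENCCs at day 10 (blue circles) and day 15 (red squares) on a log2(CPM + 1) axis with exact Poisson 95% intervals, in 3 panels for modification and folding, processing and cross-linking, and degradation and its inhibitors. LOXL1 (log2 ratio 2.61), MMP2 (2.20) and TIMP3 (1.74) lie furthest to the right at day 15 relative to day 10 among the abundant genes, while PCOLCE (-1.65) and CTSK (-1.32) lie to the left.

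Among 10 collagen-degrading enzymes and inhibitors, 6 were compared in ENCCs, 3 were higher (MMP2, TIMP2 and TIMP3) and 1 lower (CTSK), with a median log2 ratio of 1.27. MMP2, a gelatinase, was 20.4 CPM (18.9 to 21.9) and 96.9 (94.4 to 99.5), TIMP2, an inhibitor, 6.04 (5.27 to 6.88) and 19.8 (18.7 to 21.02), and TIMP3, a matrix-bound inhibitor, 22.7 (21.2 to 24.3) and 78.3 (76 to 80.7), with 265 (239.9 to 292) in ENCC 4′. The interstitial collagenases MMP1, MMP8 and MMP13 were at or near 0 in both libraries. The whole libraries, with 6 compared, gave the same calls.

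Of the 8 receptor genes only ITGB1, the shared subunit of collagen-binding integrins, passed the filter in ENCCs, with 57.1 (54.6 to 59.5) CPM in day-10 and 182 (178 to 185) in day-15 ENCCs. In the whole libraries 3 were compared, ITGB1 was higher and MRC2, an uptake receptor for collagen, lower. Of the 9 basement membrane partners, 8 were compared in ENCCs, with a median log2 ratio of 0.25. Of these, 1 was past the limit, AGRN, which was higher (4.22 (3.59 to 4.94) and 10.8 (9.92 to 11.7) CPM). In the whole libraries all 9 were compared and 0 were past the limit. NID1, which links type IV collagen to laminin, was 50.9 (48.6 to 53.2) and 34.3 (32.8 to 35.9). Of 9 fibril partners, 3 passed the filter in ENCCs, with a median log2 ratio of 1.08, and 2 were higher, BGN (21.8 (20.4 to 23.4) and 74.9 (72.7 to 77.2) CPM) and FN1 (5.93 (5.17 to 6.77) and 13.7 (12.7 to 14.7)). In the whole libraries 5 were compared, and LUM, BGN and TNC were higher. The log2 ratios in ENCCs alone were 0.42 for LUM and 0.69 for TNC. LUM had 436 UMIs in the 47 Mes cells of day 15, a type not annotated at day 10.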

How the data were processed

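Single-cell libraries of 1 day-10 culture and 1 day-15 crestosphere culture were analysed. The authors deposited gene-by-cell tables of raw UMI counts with the cells' metadata, in which the percent of mitochondrial and ribosomal UMIs, the novelty score, the cell cycle phase, the cell type and the subtype are given. Per the labels' processing notes, Cell Ranger, Seurat 4.0.4 and GRCh38 were used, whereas the study's methods name kallisto and bustools for counting; the annotation release and strand setting were not given in the sources used here. Cells removed by the authors' quality filter stay in the tables. They form part of the whole libraries but of no cell type, and have a median of 3679 UMIs at day 10 and 21367 at day 15. No doublet caller was run. Values without the 6% of kept cells with most UMIs are given, but they cannot settle whether doublets are present, since a doublet need not be among the deepest cells.

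UMIs were summed over the cells of each library, cell type and subcluster (Python 3.11.15, numpy 2.4.6, scipy 1.17.1, pandas 2.3.3). With 1 library per stage no test was made. Log2 ratios used CPM with a pseudocount of 1, and genes with a mean CPM of at least 2 in the compared groups were counted as higher or lower past 1 log2 unit. The interval of a log2 ratio sets the lower bound of one group's 95% interval against the upper bound of the other. For shares of cells, each cell was thinned to 3000 UMIs and shallower cells were left out (20 at day 10 and 0 at day 15). TMM factors came from edgeR 4.0.16 in R 4.3.3. The log2 ratios, calls and Poisson intervals were tested on simulated Poisson counts with known fold changes in genes of at least 20 CPM. Changes in weaker genes, small clusters and variation between repeats were not simulated. Genes with values of their own reached 5 CPM in a library, or 10 CPM on 10 UMIs in a type or subcluster of at least 40 cells; handling genes are given where they passed 1 log2 unit at 20 CPM or are the best known of their list. The members and lists were chosen with earlier results of these data known. Gene positions are from GENCODE for GRCh38 and sequences from RefSeq for GRCh38.p14.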

Additional observations from a re-analysis of the deposited data

Results flagged for a closer look

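COL1A2 and COL9A1 lay on opposite sides of ENCCs in the NEPs of the 2 stages, each time with intervals that did not overlap. The log2 ratio of NEPs over ENCCs for COL1A2 was -1.46 at day 10 and 0.76 at day 15. For COL9A1 it was -0.38 and 1.34. The difference between the stages was not tested, since each stage is 1 library. WNT2B and PAX6, the markers of NEPs, summed to 1399 CPM in the 1811 day-10 NEPs and 235 CPM in the 104 day-15 NEPs.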

How the results depend on the processing

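No paired analysis was possible because each stage is 1 library. Without the 6% of kept cells with most UMIs the collagen sum of the day-10 library was 744 CPM in place of 754. That of the day-15 library was 359.5 CPM over kept cells only, 356 as a mean over cells and 364 without the deepest kept cells, in place of 341. With a mean CPM of at least 10, 5 collagen genes in place of 11 were lower at day 15 in ENCCs, since fewer genes were compared. The other counts of genes stayed within 1.5 times of their main value under no filter, TMM scaling and pseudocounts of 0.5 and 5 CPM. No call of a described gene changed direction. In the whole libraries COL9A1 lost its call on thinning, with TMM and with the pseudocount of 5, COL25A1 gained one on thinning and with TMM, and COL4A1 gained one with the pseudocount of 0.5. In ENCCs COL9A2 lost its call over numbered subclusters only, COL9A1 with TMM and with the pseudocount of 5, and COL9A3 with the pseudocount of 5. COL5A1 and COL26A1 gained one over G1 cells, and COL26A1 with the pseudocount of 0.5. Over G1 cells 9 of the 22 log2 ratios in ENCCs moved outside their interval, the largest move being 0.68 for COL9A2, COL25A1 was 0.03 in place of 0.56, and COL27A1, which had no call, changed sign to 0.05. Chain shares, whose alternatives were chosen after seeing the data, moved outside their interval in 5 of 24 cases, with COL4A6 in day-15 ENCCs at 11.2% in G1 cells in place of 7.98%. Without the deepest kept cells, COL11A2 in day-10 NEPs was 1.45 CPM in place of 2.64, COL25A1 there 0.512 in place of 1.14, COL3A1 in day-10 ENCCs 0.416 in place of 0.677, and COL3A1 in ENCCs outside the subclusters 2.84 in place of 6.67. Types of under 50 cells leave values below 3 UMIs, which equal 7.46 CPM in CP2 and 5.35 CPM in Mes, unresolved.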
